A study of Mus musculus with 150 samples.

Results

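The 6 genes described here, Myc, Mycn, Mycl, Max, Mxi1 and Mxd1, encode proteins of the MYC network. They were found among the 30010 gene names listed over the bins of a deposited copy number table, and they lay in 7 bins, since Mxi1 spans a boundary between bins. The table holds low-coverage sequencing of genomic DNA from 150 single cells, 50 from each of the lung tumours T1, T7 and T9, which were dissected out separately. All 3 tumours came from 1 animal, mouse M3, at 30 weeks after tumour induction. The label of every cell is KP_30w_ND, in which ND is unexplained. The mice were of a C57BL/6 x Sv129 mixed background and carried Trp53flox/flox, a conditional deletion of the tumour suppressor p53, with Rosa26LSL-tdTomato and Rosa26LSL-Luciferase reporters. The labels list AdSPC-Cre, an adenovirus that expresses Cre recombinase from the promoter of surfactant protein C, a gene of alveolar type 2 cells, and AdCMV-FlpO, without saying which of them mouse M3 received. No normal cells were analysed here, so T1, T7 and T9 are compared with each other. Because each group is 1 tumour, no test between tumours was possible, and a tumour cannot be told apart from the handling of its cells. The labels name alveolar type 2 cells as the source, which DNA copy number cannot check.

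MYC, MYCN and MYCL are related transcription factors that bind DNA only as a dimer with MAX, at the E-box sequence CACGTG, and drive genes of ribosome production, metabolism and cell division. MXD1 and MXI1 also dimerise with MAX, occupy the same sites and recruit repressors, so the balance among the proteins that share MAX sets the output of the network. Amplification of the MYC genes is a well-known lesion of lung cancer, MYCL having been found in small cell lung cancer, and loss of MAX is known in that disease too.

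Promoters are shown for the member most often lost, the shared partner and the member most often gained, because a change in copy number alters the number of these sites in a cell. The stretches run 5′ to 3′ from 85 bases before to 10 bases from the transcription start on, are taken from RefSeq (GRCm38.p6), and carry an E-box in capitals where the script found one. Mycl lies on the plus strand at chr4:122995846-122995940, Max on the minus strand at chr12:76962239-76962333, and Mxd1 on the minus strand at chr6:86669150-86669244.
Mycl: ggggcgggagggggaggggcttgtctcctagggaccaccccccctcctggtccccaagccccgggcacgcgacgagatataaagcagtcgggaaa
Max: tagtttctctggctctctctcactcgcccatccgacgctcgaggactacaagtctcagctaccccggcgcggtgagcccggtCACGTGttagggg
Mxd1: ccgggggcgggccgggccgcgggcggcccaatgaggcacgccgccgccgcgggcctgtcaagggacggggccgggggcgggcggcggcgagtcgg
CACGTG, which reads the same on both strands, occurred in 1 of the 7 windows of 300 bases listed for 5 of the members, that of Max, and in 7.15% of the 32851 promoter windows in the table. The bins are about 500 kb long, so the sequencing measured the region around each promoter and not the promoter itself.

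A level is a log2 ratio from which the median over the autosomal bins of that cell was subtracted, so 0 is what is typical of the cell. A doubling of the whole genome is therefore not visible. Each chromosome of each cell was divided into segments of even level, and a gene was called gained at a segment level of 0.32 or more and lost at -0.42 or less. These thresholds are what 2.5 and 1.5 copies would give in a cell with 2. Without the noisiest cells there remained 47 T1 cells, 48 T7 cells and 50 T9 cells. No pair of the 150 cells held identical values. A kept T1 cell had between 20.5 and 170.1 Mb of sequenced bases, with 97.7 Mb in the median cell. The T7 cells had 24.6 to 140.3 Mb, with a median of 69.3, and those of T9 had 43.3 to 82.1 Mb, with a median of 56.7. Noise was higher in T1, with a median of 0.191 against 0.146 in T7 and 0.133 in T9. Intervals on shares are exact Clopper-Pearson 95% intervals and cover the counting of cells only. Errors given as SD are over cells.

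Zero had a different standing in T1. Only 7.91% of the autosomal bins had a T1 median level within 0.1 of 0, against 86.4% in T7 and 79.0% in T9. In T1, 45.2% of the bins had a median from 0.1 up to the gain threshold and 32.3% had one from -0.1 down to the loss threshold. Small departures from 0 in T1 were thus the common state of the genome, and they are read below mainly as differences between genes of the same cell, which do not depend on the centring.

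**Figure D1:**
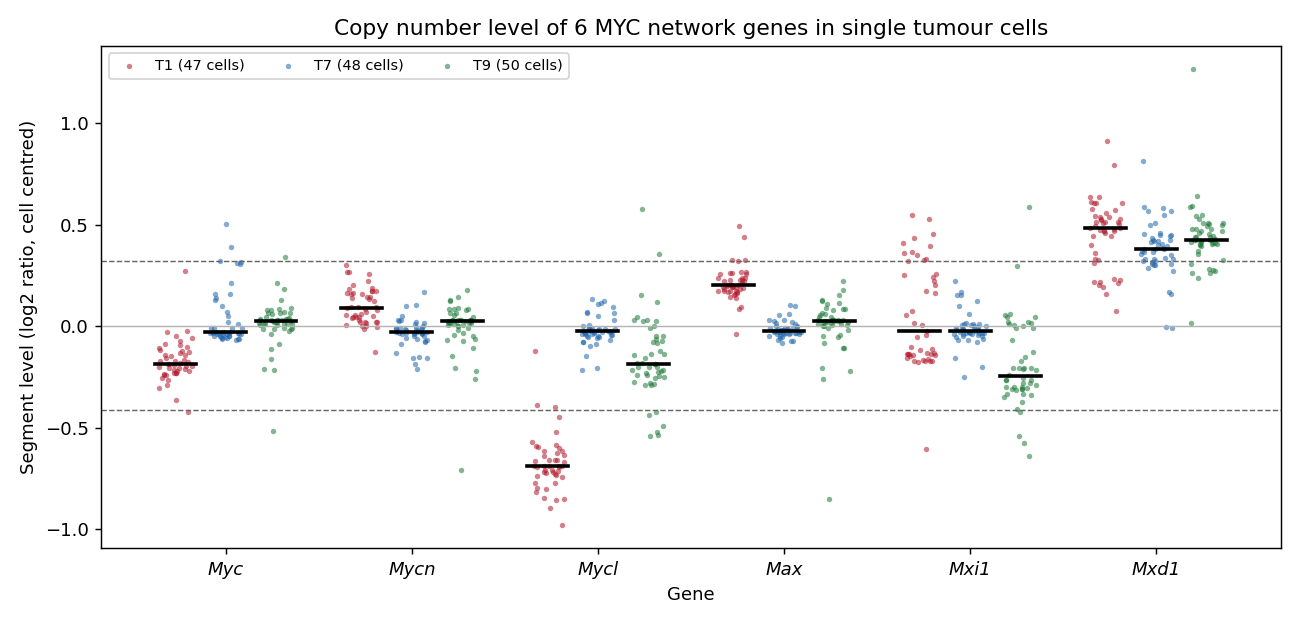
Segment level (log2 ratio, vertical axis) of each gene in each kept cell of T1, T7 and T9, with 1 point per cell, black bars at the medians and dashed lines at the thresholds for gain and loss. Mycl is lowest in T1, with a median of -0.69, and lies between 0 and the loss threshold in most T9 cells, and Mxd1 sits high in all 3 tumours.

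Of the MYC genes, Mycl departed most from the level of its cells in T1 and in T9, while in T7 all 3 had a median of -0.03. Mycl, on chromosome 4 at 122995588 to 123002490 (GRCm38), was lost in 44 of 47 T1 cells (93.6%, interval 82.5 to 98.7), in 6 of 50 T9 cells (12.0%, 4.53 to 24.3) and in none of the 48 from T7, where a count of 0 still allows up to 6.25%. Over all autosomal bins, 20.1% lay in a lost segment in at least 20% of T1 cells, 4.2% did so in T9 and 2.52% in T7. Segment levels of Mycl in T1 ran from -0.98 through a median of -0.69 to -0.12 (SD 0.14). In T7 they ran from -0.22 through -0.03 to 0.13 (SD 0.07), and in T9 from -0.54 through -0.19 to 0.58 (SD 0.21). The T1 cells were nearly separate from T7, with 46 of 47 below every T7 cell, while 42 of 47 were below every T9 cell. By the bin of Mycl these counts were 46 and 14. The median difference of T1 was -0.66 from T7 and -0.50 from T9, both beyond the SD over cells of either tumour. Mycl was the only member whose median segment levels differed by 0.3 or more between tumours. A segment difference of that size was found at 11.1% of the autosomal bins between T1 and T7, at 11% between T1 and T9 and at 17.7% between T7 and T9. By the bins of the genes, Mycn (T1 minus T7, 0.31) and Myc (T1 minus T9, -0.30) reached it too. So did 2 members in depth without scaling of bins. The T1 and T7 medians there were 0.44 and -0.01 for Max and 0.77 and 0.40 for Mxd1.

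By segment level the T9 cells were spread over several Mycl states. Of the 50, 6 were lost, 27 lay from -0.1 down to the loss threshold, 13 lay within 0.1 of 0, 2 lay above and 2 were gained. The intermediate level was thus the commonest one in T9. The bin of Mycl itself was more uniform in direction. It was below 0 in 47 of the 50 cells, at a median of -0.25, while the segment was below 0 in 40. The share lost was 0% with stricter thresholds and with depth scaled over all cells, and 26% with looser thresholds. Only 9.28% of the autosomal bins had a T9 median in that band.

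Myc, on chromosome 15 at 61985341 to 61990361, was rarely called. It was gained in 2 T7 cells, in 1 T9 cell and in 0 of 47 T1 cells, which allows up to 6.38%, and it was lost in 1 cell each of T1 and T9. Bins in a gained segment in at least 20% of cells made up 11.7% of the autosomes in T1, 13.6% in T7 and 7.07% in T9. Segment levels of Myc in T1 ran from -0.42 through -0.19 to 0.27 (SD 0.10). The T7 levels ran from -0.07 through -0.03 to 0.50 (SD 0.14), and the T9 levels from -0.51 through 0.03 to 0.34 (SD 0.12). Although only 1 T1 cell reached the threshold, 46 of the 47 were below 0 and 42 were below every T7 cell. By the bin of Myc, 41 were below 0 and 17 were below every T7 cell. Such one-sidedness was common in T1. There, 52.3% of the autosomal bins had at least 90% of cells on 1 side of 0, against 34.8% in T7 and 16.5% in T9. Against T9 the ranges overlapped, since 1 T9 cell at -0.51 was lower than every T1 cell. The 2 gained T7 cells, at 0.50 and 0.39, were the top of a tail, since 9 further T7 cells lay between 0.1 and the gain threshold while 37 lay within 0.1 of 0.

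Mycn, on chromosome 12 at 12936093 to 12941836, encodes the MYC protein best known from neural tumours. It was gained in 0 cells of T1, T7 and T9, which allows up to 6.38%, 6.25% and 6.00%, and was lost in 1 T9 cell. Its segment levels in T1 ran from -0.13 through 0.09 to 0.30 (SD 0.09), in T7 from -0.21 through -0.03 to 0.17 (SD 0.07) and in T9 from -0.71 through 0.02 to 0.18 (SD 0.13). T1 was higher than T7 by 0.12 in the median, and the ranges overlapped, with 11 of 47 T1 cells above every T7 cell. The bin that holds Mycn was higher than its segment in T1, with a median of 0.24.

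Max, the obligate partner, lies on the same chromosome as Mycn, 64.0 Mb further along at 76937269 to 76962323. It was gained in 4 of 47 T1 cells (8.51%, 2.37 to 20.4) and in 0 cells of T7 and T9, and lost in 1 T9 cell. Segment levels of Max in T1 ran from -0.04 through 0.20 to 0.49 (SD 0.08). The T7 levels ran from -0.08 through -0.03 to 0.11 (SD 0.04), and the T9 levels from -0.85 through 0.02 to 0.22 (SD 0.15). In T1, 46 of 47 cells were above 0, where 52.3% of the autosomal bins had at least 90% of cells on 1 side. By segment level, 44 of the T1 cells were above every T7 cell. The bin of Max overlapped, at -0.32 to 0.49 in T1 and -0.47 to 0.26 in T7. How many autosomal bins part T1 from T7 by segment level in this way was not counted. Only 7.91% of the bins had a T1 median within 0.1 of 0, against 86.4% in T7. The gain threshold was within 0.1 of 16 T1 cells. With each cell centred on the commonest level of its bins instead of the median, the T1 median of Max was 0.11. The share of T1 cells with a gain of Max was 51.1% with looser thresholds, and it was 40.4% with depth scaled over all cells, at a median of 0.31.

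Within the same T1 cells, Max was above Myc in 45 of 47, by a median of 0.39 (SD 0.13), or 1.31-fold. In T7 and T9 that difference was 0.01 (SD 0.15) and 0.00 (SD 0.23). In most T1 cells the log2 ratio of the region of Max was thus above that of the region of Myc, whichever level is taken as 0. In log2 depth the T1 medians over 21 bins were 0.37 around Max and -0.19 around Myc. In the deposited log2 ratio the same cells held less Mycl than Myc, by 0.50 (SD 0.16), in all 47. In the deposited depth the T1 medians over 21 bins around these genes differed by 0.09.

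Mycn and Max were joined in 1 segment in most T7 and T9 cells and separated in most T1 cells. A segment boundary lay between them in 32 cells from T1 of 47, in 12 from T7 of 48 and in 11 from T9 of 50. Where T1 had such a boundary, Max had the higher segment in 31 of 32 cells, by a median of 0.17. The bins of the genes themselves ran the other way in T1, with Max below Mycn by a median of 0.12 (SD 0.17), and with a doubled segmentation penalty the T1 medians were 0.17 for Mycn and 0.20 for Max. In T7 it was higher in 9 of 12 and in T9 in 6 of 11. Depth and noise differ between T1 and the other tumours as given above, and their part in the number of boundaries was not tested. The Pearson correlation of Mycn and Max levels was 0.39 over T1 cells, 0.23 over T7 cells and 0.91 over T9 cells, for genes of 1 chromosome that often share a segment. Leaving out the 2 T9 cells farthest from the Mycn median lowered it to 0.69.

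**Figure D2:**
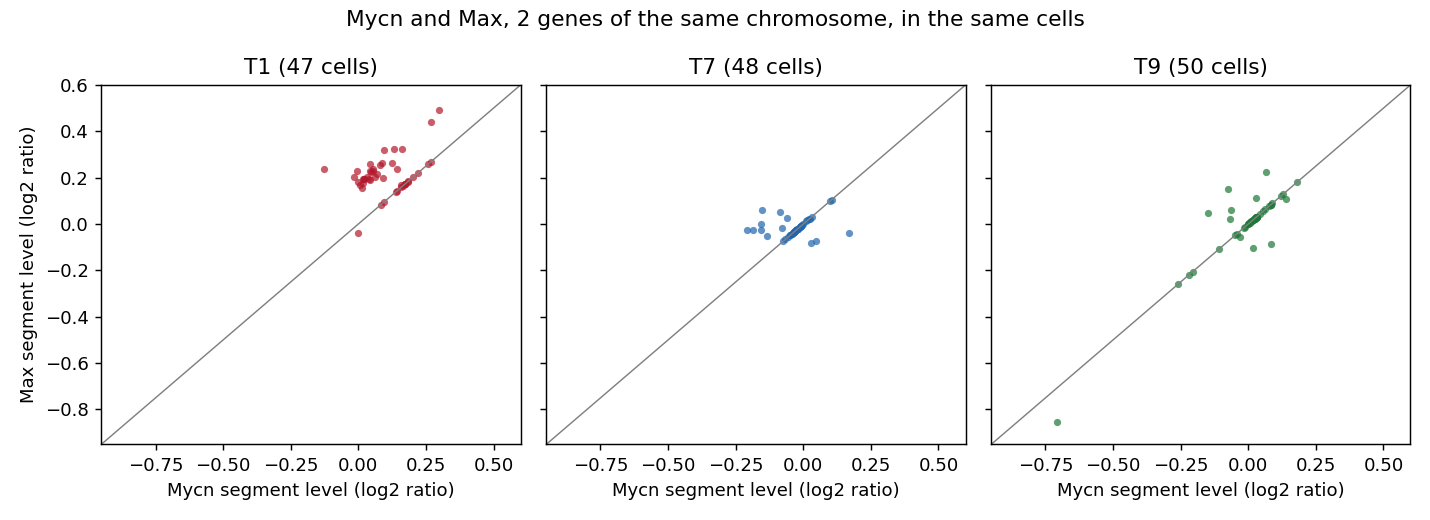
Segment level of Mycn (horizontal axis, log2 ratio) against that of Max (vertical axis, log2 ratio), 1 point per cell and 1 panel per tumour, with a line of equal level. Most T1 points lie above the line, points of cells without a boundary lie on it, and 1 T9 cell lies far below the rest at -0.71 for Mycn and -0.85 for Max.

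Of the repressors that compete for MAX, Mxi1 differed among cells of the same tumour. Mxi1 lies on chromosome 19 at 53310128 to 53373293. It was gained in 11 of 47 T1 cells (23.4%, 12.3 to 38), in 1 T9 cell and in 0 of 48 T7 cells, which allows up to 6.25%. It was lost in 4 of 50 T9 cells (8.00%, 2.22 to 19.2), in 1 T1 cell and in 0 T7 cells. The T9 share lost was 0% with stricter thresholds and 50% with looser ones. Segment levels of Mxi1 in T1 ran from -0.61 through -0.03 to 0.55 (SD 0.25), in T7 from -0.25 through -0.02 to 0.22 (SD 0.08) and in T9 from -0.64 through -0.25 to 0.58 (SD 0.21). The T1 cells split into a low and a high side, with 20 from -0.1 down to the loss threshold, 7 within 0.1 of 0, 8 between 0.1 and the gain threshold and 11 gained. A median near 0 therefore described few T1 cells. In T9, 31 of 50 cells lay from -0.1 down to the loss threshold and 13 within 0.1 of 0. T9 was lower than T7 by 0.22 in the median, beyond the SD of either, and 25 of 50 T9 cells were below every T7 cell.

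The T1 gain of Mxi1 was close to the thresholds, with 12 of the 47 cells within 0.1 of the one for gain. The share was 6.38% with stricter thresholds, 14.9% with centring on the commonest level, 17% with a doubled segmentation penalty and 16% over the 25 least noisy T1 cells. The 11 gained cells also had more of the genome called, with a median of 38.9% of autosomal bins against 16.8% in the other 36, and 3 of the 4 cells with a gain of Max were among them. Their depth was similar, at 95.6 and 98.9 Mb, and their noise was 0.205 against 0.190. The part of these features in the gain was not tested.

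Mxd1, on chromosome 6 at 86647044 to 86669234, was the member gained in most cells of every tumour. T1 had the gain in 37 of 47 cells (78.7%, 64.3 to 89.3), T7 had it in 36 of 48 (75%, 60.4 to 86.4) and T9 in 42 of 50 (84.0%, 70.9 to 92.8), and no cell had a loss. Segment levels of Mxd1 in T1 ran from 0.07 through 0.48 to 0.91 (SD 0.17), in T7 from -0.01 through 0.38 to 0.81 (SD 0.14) and in T9 from 0.02 through 0.43 to 1.27 (SD 0.16). The 3 ranges overlapped, and no pair of tumours differed by more than the SD over cells. All but 2 of the 145 cells were above 0, both of them in T7. Many calls were near the threshold, since 29 T7 cells, 20 T9 cells and 7 T1 cells lay within 0.1 of it.

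The 12 T7 cells without a called gain of Mxd1 were not mostly at 0. Their median level was 0.29, and 10 of them lay between 0.1 and the threshold. They had fewer sequenced bases, with a median of 48.5 Mb against 77.7 Mb in the 36 called cells, and 3.00% of their autosomal bins were called against 13.1%. In 3 of them no autosomal bin was called at all. Whether the lower depth bears on the missing calls was not tested.

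The gained segment that held Mxd1 differed in extent between the tumours. In T9 the same bin, 69719313 on chromosome 6, began it in 31 of the 42 gained cells, 16.9 Mb before the gene, and none of the 42 began at the first bin of the chromosome. In T7, 27 of 36 gained cells had a segment from the first bin of the chromosome, and in 26 it covered the whole chromosome. The T1 starts were spread from 3050001 to 84207630, the commonest being 51733817 in 5 of 37 cells, with 15 starting within 5 Mb of it. The level at the first bin of chromosome 6 had a median of 0.02 in T9, 0.37 in T7 and 0.20 in T1. The similar share of gained cells thus went with segments of different length.

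**Figure D3:**
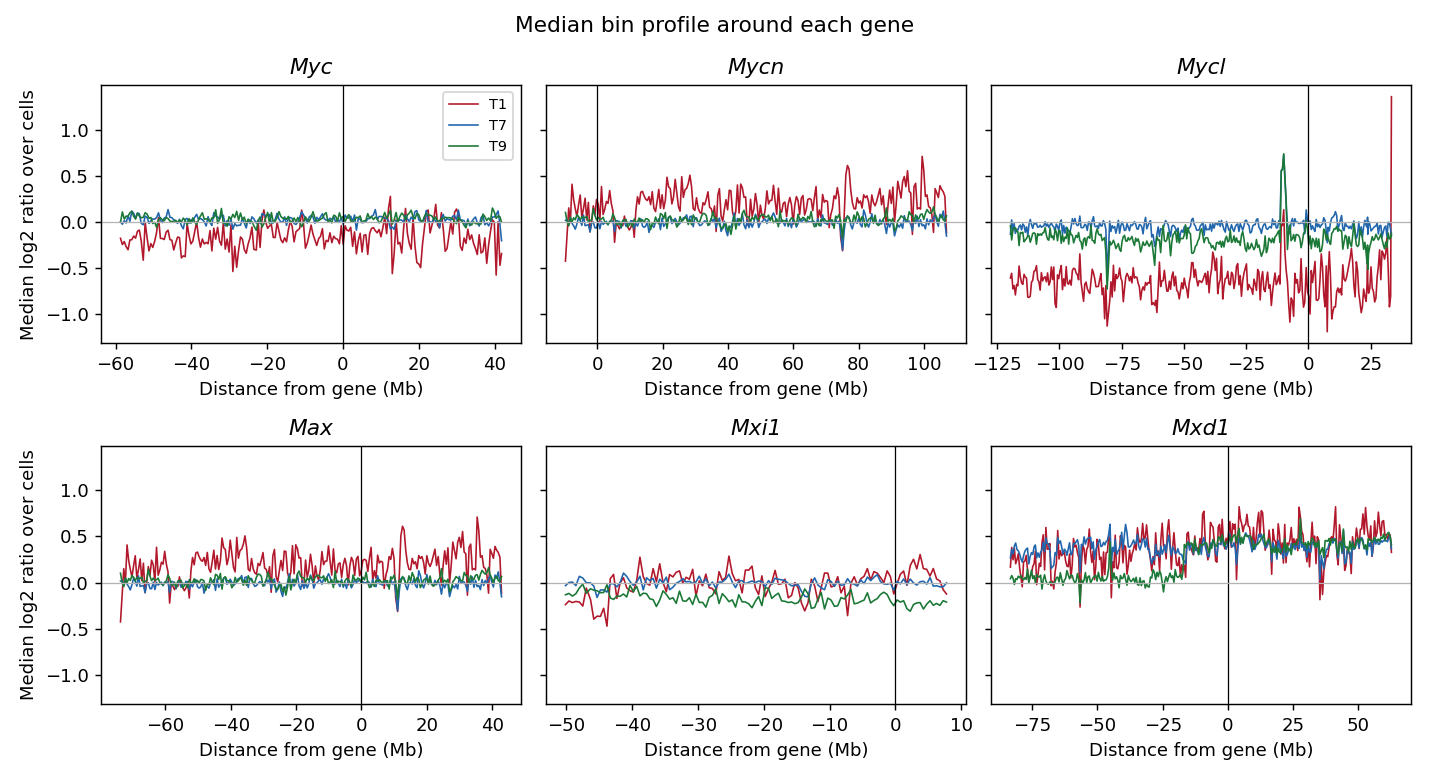
Median log2 ratio over the kept cells of T1, T7 and T9 (vertical axis) for the bins of the chromosome that holds each gene, against the distance from the gene in Mb (horizontal axis), with a vertical line at the gene. Mycl in T1 and Mxd1 lie on long plateaus, and the T9 line steps up 16.9 Mb before Mxd1.

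No member stood out from its neighbourhood as a narrow amplification. The bin of a gene minus the median of the 10 bins on each side reached 0.5 in 0 cells for any of the 6 genes in T1, T7 or T9. It fell to -0.5 or less at Mycl in 5 T1 cells and at Myc in 2 T1 cells. At the other members it did so in at most 1 cell of a tumour. Segments in which Mycl was called had a median length of 142.9 Mb in T1, of the 153.3 Mb covered on that chromosome, and 16 of the 44 lost cells had the whole chromosome in 1 segment. Of 80 bins within 20 Mb of Mycl, 71 had a T1 median at or under the loss threshold. Myc lay in a segment of the whole chromosome in 38 T1, 44 T7 and 40 T9 cells.

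T9 had segment boundaries close to Mycl. A boundary lay within 5 Mb of its bin in 24 of 50 T9 cells, against 13 of the 48 from T7 and 2 of the 47 from T1. In 10 T9 cells the segment began at the bin of Mycl itself, with a step down of 0.16 to 0.25. In the median profile of T9 the 10 bins before that of Mycl had a level of -0.14 and the 10 after it one of -0.24. A narrow peak 10.1 Mb before Mycl had a median log2 ratio of 0.74 in T9 and 0.73 in T7. In T1 it reached 0.13, where the median within 20 Mb of Mycl was -0.66, so the peak was not particular to T9. A segment had to span at least 10 Mb, about the distance from the peak to Mycl. Where the boundaries near Mycl fell was therefore limited by this setting, and the part of the peak in them was not tested.

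The 6 genes were combined differently in the cells of the 3 tumours. In T1 the commonest state was a loss of Mycl with a gain of Mxd1 and nothing else called, in 26 of 47 cells, and any state with both changes was found in 36. In T9 both were called in 6 of 50 cells, every one of those with a Mycl loss, and in T7 in 0 of 48. In T7 34 cells had a gain of Mxd1 alone, 12 had no member called and 2 had gains of Myc and Mxd1. In T9 30 cells had a gain of Mxd1 alone and 6 had no member called. Every T1 cell had at least 1 member called, and T1 had 12 different combinations against 3 in T7 and 9 in T9. T1 cells also had more of the genome called. The median share of autosomal bins called in a cell was 17.5% in T1 (lowest 10.1%), 13.1% in T7 (lowest 0%) and 11.6% in T9 (lowest 0%). The variety of combinations is therefore not read as a trait of the 6 genes.

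The distance from Mycl to Mxd1 within a cell was larger in T1 than in T7 or T9. Mxd1 was above Mycl in all 47 T1 cells, by a median of 1.18 (SD 0.24), or 2.27-fold. It was above Mycl in 46 of 48 T7 cells by 0.40 (SD 0.18) and in 48 of 50 T9 cells by 0.62 (SD 0.24). In T9 the lowest median was that of Mxi1, with Mxd1 above it by 0.69 (SD 0.29). Ordered by median, the T1 members were Mycl, Myc, Mxi1, Mycn, Max and Mxd1. In that order Myc and Mxi1, and Mxi1 and Mycn, did not differ beyond the SD of their difference within cells. In T7 only the step from the other 5 genes to Mxd1 exceeded it, and in T9 only the step from Myc to Mxd1.

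Mycl and Mxi1 were both low in many T9 cells. Levels of -0.1 or less at both were found in 26 of 50 T9 cells, at Mycl alone in 7 and at Mxi1 alone in 9. The 6 cells with a called Mycl loss had a median Mxi1 segment level of 0.00. The 4 with a called Mxi1 loss had a median Mycl segment level of -0.03. No cell had both called losses, but with 6 and 4 of 50 cells few shared cells would be found for unrelated losses too. The lack of overlap is therefore not read as a pattern. With stricter thresholds no T9 cell had either loss. The correlation of the levels of these genes over the 50 cells was -0.04.

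Of the T9 cells, 1 had 5 of the 6 members called. In that cell Myc was at 0.34, Mycn at -0.71, Mycl at 0.58, Max at -0.85, Mxi1 at -0.30 and Mxd1 at 1.27. It was the highest T9 cell at Myc, Mycl and Mxd1 and the lowest at Mycn and Max. It had 78.1 Mb of sequence, a noise of 0.128 and 37.9% of its autosomal bins called. With all 50 cells, correlations between members on different chromosomes of T9 ran from -0.66 to 0.46. They ran from -0.36 to 0.28 once the 2 cells farthest from the median of the gene listed first were left out of each pair.

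**Figure D4:**
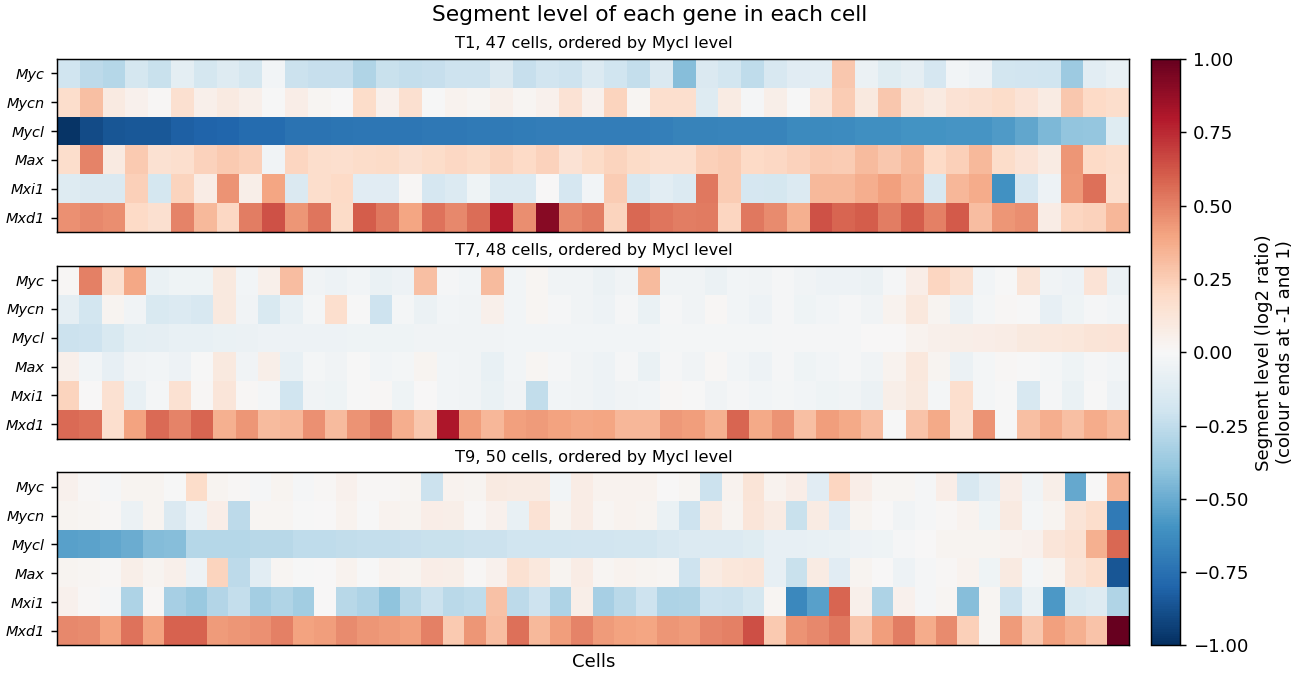
Segment level (colour, log2 ratio, limited to -1 and 1) of the 6 genes in every kept cell of T1, T7 and T9, with cells in columns ordered by Mycl level. T1 has a blue Mycl row above a red Mxd1 row in nearly every column, T7 has colour mainly at Mxd1 and in some columns at Myc, and the last column of T9 is the cell with 5 members called.

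The deposited depth gave smaller losses of Mycl in T1. Over the 21 bins around Mycl the T1 median was -0.75 in the deposited log2 ratio and -0.29 in log2 depth centred on the same cells, a gap that was within 0.1 in T7 (-0.02 and 0.08) and T9 (-0.18 and -0.16). For Mxd1 the T1 values were 0.48 and 0.81, and for Max 0.23 and 0.37. For Myc they were -0.19 and -0.19. Calls on the depth without any correction of bins found Mycl lost in 14.9% of T1 cells and Max gained in 85.1%. Calls on depth with each bin divided by its median over all cells found Mycl lost in 36.2%. That median takes in the T1 cells, so this scaling shifts part of a T1 loss onto the other tumours by construction. The T7 median of Mycl was 0.17 with it and 0.09 without. In the depth around the genes Mycl was still the lowest of Mycl, Myc, Max and Mxd1 in T1, but only by 0.09 under Myc, against 0.56 in the log2 ratio. Segments from depth gave T1 medians of -0.31 for Mycl and -0.25 for Myc without scaling of bins and of -0.23 and -0.22 with it. The median of Mxd1 exceeded that of Mycl by 1.09 in the depth and by 1.23 in the log2 ratio.

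**Figure D5:**
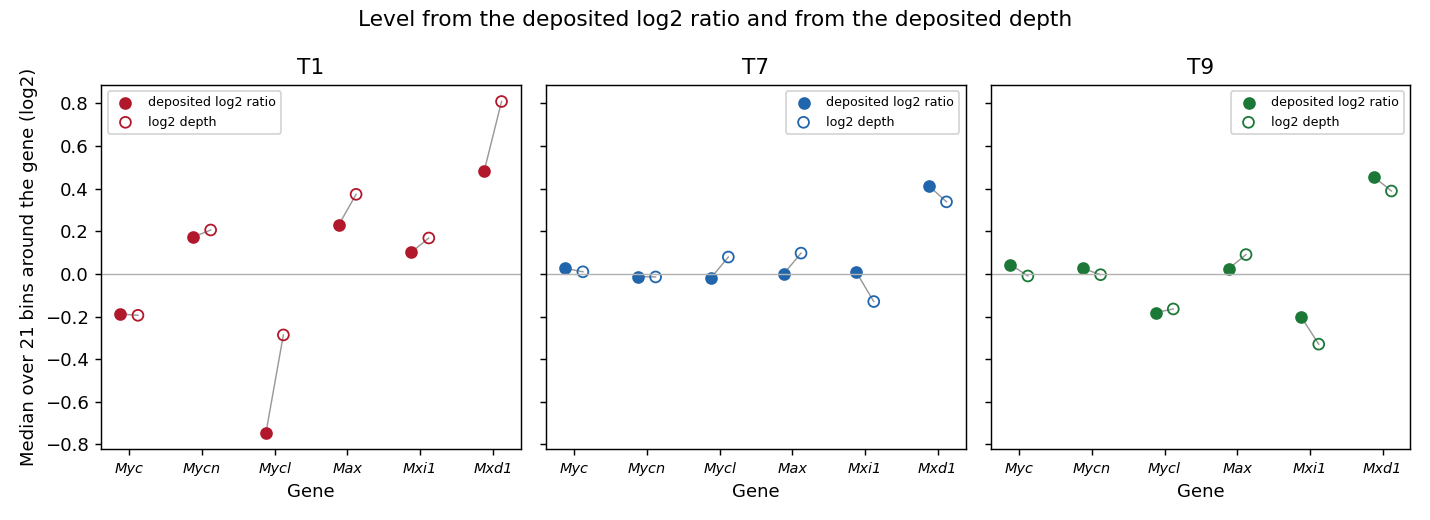
Median level over 21 bins around each gene (vertical axis, log2) in T1, T7 and T9, from the deposited log2 ratio (filled) and from the deposited depth (open), both centred per cell on autosomal bins. The symbols lie apart mainly in T1, where depth is higher than the ratio at Mycl, Max and Mxd1.

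Depth moved with the number of genes in a bin, most of all in T1. There, bins with 10 or more genes had a median log2 depth of 0.27 and bins with 0 or 1 gene one of -0.33. In T7 these were 0.12 and -0.09, and in T9 0.07 and -0.01. In the deposited log2 ratio the T1 medians were -0.07 and 0.02. The bin of Mycl lists 16 genes, that of Max 8 and that of Mxd1 26. The depth of the Mycl bin in T1, at -0.21, was thus below that of other gene-rich bins, and the Mxd1 bin, at 0.99, was above it. How far the correction behind the log2 ratio sets the size of the T1 loss was not tested.

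Beyond the 6 members, a list of 46 other genes of the network was read in the same way. Of the 45 on autosomes, 3 were gained and 6 lost in at least 20% of cells in T1, 7 and 1 in T7, and 3 and 6 in T9. The percentages of these counts, 6.67 and 13.3 in T1, 15.6 and 2.22 in T7 and 6.67 and 13.3 in T9, stand beside autosomal backgrounds of 11.7 and 20.1, 13.6 and 2.52, and 7.07 and 4.2. Several genes of the list lie on the same chromosome and count the same event. The 45 genes had a median level of 0.00 over T1, -0.03 over T7 and 0.02 over T9, against 0.09, -0.03 and 0.02 over all autosomal bins.

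Among the other proteins that bind MAX and repress, Mga was gained in 35 of 48 T7 cells, at a median of 0.39 (SD 0.18), and Mxd3 was lost in 11 of 47 T1 cells, where its median was 0.12 (SD 0.37). Mxd4 and Mnt did not reach 20% of cells in any tumour. In the parallel arm around MLX, a partner of glucose-sensing factors, Mlx was lost in 42 of 50 T9 cells, at a median of -0.56 (SD 0.22). Mlxip and Mlxipl did not reach 20% in T1, T7 or T9.

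Of 13 cofactors, Ruvbl1, an ATPase of chromatin remodelling complexes on chromosome 6, was gained in the same numbers of cells as Mxd1 in all 3 tumours (37, 36 and 42). Sin3a, the corepressor that MXD proteins recruit, lies on chromosome 9. It was lost in 45 of 47 T1 cells at a median of -0.64 (SD 0.09) and in 47 of 50 T9 cells at -0.64 (SD 0.14). In both tumours most cells with a gained Mxd1 segment thus had a lost Sin3a segment. Shares this high must overlap, so this is not read as a link between the 2 genes. Zbtb17, the MIZ1 partner through which MYC represses, lies on chromosome 4 with Mycl and was lost in 43 of 47 T1 cells. Kat2a, a histone acetyltransferase, was lost in 42 T9 cells, the number found for Mlx on the same chromosome. Wdr5 and Cdk9, on chromosome 2, were each gained in 34 of 48 T7 cells.

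Of 10 genes of MYC protein turnover, Usp28, a deubiquitinase that stabilises MYC, lies on chromosome 9 with Sin3a. It was lost in 46 of 47 T1 cells at a median of -0.64 (SD 0.07) and in 47 of 50 T9 cells at -0.64 (SD 0.13). Usp36, a deubiquitinase of the nucleolus, lies on chromosome 11 with Mlx and Kat2a and was lost in 43 T9 cells. No gene of this group reached 20% of cells in T7.

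Of 15 targets, Ccnd2, a cyclin gene on chromosome 6, was gained in 35 T1, 36 T7 and 41 T9 cells. Nop56 and Polr1b, genes of ribosome production on chromosome 2, were each gained in 35 T7 cells. Ubtf, an activator of ribosomal RNA genes, lies on chromosome 11 with Mlx, Kat2a and Usp36 and was lost in 42 T9 cells. Cdk4, a cell cycle kinase gene, was lost in 13 T1 and 11 T7 cells, and Eif4e, which encodes the cap-binding translation factor, was gained in 10 T1 cells. Pvt1, the noncoding gene next to Myc, stood at a median of -0.19 in T1 cells, -0.03 in T7 cells and 0.03 in T9 cells, and reached 20% of cells in none of them.

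Across cells, the member or listed gene on another chromosome whose segment level was most like that of each member was found among 49 or 50 candidates. The correlations describe cells that share a tumour, a centring and a range of depth. Mycl was most like Usp28 in T1 (r = 0.54, 47 cells), Fbl in T7 (0.56, 48 cells) and Ubtf in T9 (0.52, 50 cells). Myc was most like Sin3a in T1 (0.52), Cdk4 in T7 (0.16) and Npm1 in T9 (0.46). Mycn was most like Mycl in T1 (0.25), Stub1 in T7 (0.64) and Usp28 in T9 (0.38). Max was most like Eif4e in T1 (0.29), Fbxw7 in T7 (0.73) and Ncl in T9 (0.35). Mxi1 was most like Usp28 in T1 (0.52), Ldha in T7 (0.35) and Plk1 in T9 (0.31). Mxd1 was most like Eif4e in T1 (0.46), Aurka in T7 (0.72) and Gsk3b in T9 (0.67). All kept cells entered these values, so single extreme cells can carry them. In T9 the highest cell at Mxd1 was at 1.27 and the next at 0.64. Gsk3b was gained in 1 T9 cell, at 0.74 (SD over cells 0.12). Values without extreme cells are not given for these pairs. No gene was the nearest of the same member in more than 1 tumour.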

How the data were processed

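Per the submitters' processing notes, BWA 0.7.17 aligned the reads of 150 cells to GRCm38. Per the file headers, values cover 5331 bins, each with the genes it overlaps. The deposited depth is a coverage signal, the average read number at a base of the bin. The deposited log2 ratio is 1 log2 value for every bin and cell, and the deposited weight is a score per bin that entered no level. How the ratio and the score were made was not given in the sources used here.

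Bins with depth and a finite ratio in at least 80% of cells were kept (5149, of which 4806 autosomal). Cells noisier than 0.267, the median plus 3 scaled median absolute deviations, were dropped, 3 from T1 and 2 from T7. Each chromosome was segmented by optimal partitioning on squared error, in which a new segment cost 3 times the logarithm of the bin count and had to span 5 bins and 10 Mb. Python 3.11.15 was used with numba 0.67.0 and numpy 2.4.6, and the steps were tested on simulated data. For Mxi1, which spans 2 bins, the segment of the bin that holds its middle was used.

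No test across features was run, since each group is 1 tumour. The genes and the list of 46 others were chosen with earlier results of these data known. Named were the 6 members, at most 3 listed genes per group of the list and tumour by highest share, and the listed gene most like each member. Mxd4, Mnt, Mlxip, Mlxipl and Pvt1 were named to complete their groups. The alternatives comprised other thresholds, centring, segmentation, filters on cells and levels taken from depth, of which depth without scaling of bins was chosen after seeing the data. A result on 1 item is not reported here.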

Additional observations from a re-analysis of the deposited data

How the results depend on the processing

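Every alternative below left Mycl lost and Mxd1 gained in T1 in direction, while the share of called cells moved with the thresholds and with the use of depth. Stricter thresholds (0.45 and -0.7) gave Mycl lost in 42.6% of T1 cells, Mxi1 gained in 6.38%, and Mxd1 gained in 66.0% (T1), 20.8% (T7) and 40% (T9). The bins gained in at least 20% of cells were then 6.49% in T1 and 4.52% in T7, and those lost were 5.97% in T1, 0% in T7 and 2.14% in T9. Looser thresholds (0.2 and -0.25) gave Mxd1 gained in 93.6%, 91.7% and 98% of cells, 3 members changed in T9, 49.1% of T1 bins gained and 15.3% of T9 bins lost. With depth scaled by the median of each bin over all cells, Mycl was lost in 36.2% of T1 cells at a median of -0.23, Mxi1 was gained in 38.3% at 0.14, and the Mxd1 gain was called in 51.1% (T1), 4.17% (T7) and 6% (T9), at T7 and T9 medians of -0.048 and -0.016. That left 0 members changed in T7 and 0 in T9. This scaling takes out by construction what most cells of all tumours share, such as the Mxd1 gain. It also takes out part of a change of 1 tumour, such as the T1 loss of Mycl. The fall from the 93.6% of the log2 ratio was found without this scaling too, as given next. Depth without scaling, chosen after seeing the data, gave Mycl lost in 14.9% of T1 cells at -0.31 and Mxd1 gained in 95.7% at 0.77, and turned the T1 median of Mxi1 to 0.053. A running median of 11 bins turned it to 0.012. Beyond what that scaling does by construction, the causes were not tested. For the changes called in at least 20% of cells, with the counts of members and shares of bins, 87 values stayed the same. A further 27 moved and 5 reversed in sign. Of the other values, 257 of 279 shares stayed within their intervals and 84 of 91 medians within 1 SD. Many of those shares were at or near 0, where the interval is wide for the count.

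No paired analysis was possible because the replicate numbers only name cells in accession order and no test was run. Cells were not left out in turn, since each group holds over 5. The median cell of a tumour had 9.02 to 34.7 kb of sequence in the bin of a member. Changes narrower than a bin and doublings of the whole genome are not visible at this depth.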
